A study of Homo sapiens with 24 samples.

Results

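HaCaT cells are human keratinocytes, the epithelial cells that build the epidermis, and the line is immortal without being malignant. The libraries described here came from HaCaT clones that carried an empty vector and had been kept for 29 weeks either in 100 nM inorganic arsenic (iAs) or in medium with 0 nM iAs. Each dose has 3 libraries, so 6 of the 24 libraries of the series enter the comparison, chosen by their labels for construct, dose and week. The vector clones are the controls of a series that also holds clones with hsa-miR-186, a microRNA, and every clone of the series, vector included, was transduced and passaged in the same way. Per the labels, 3 individual clonal lines carried the vector, but no label ties a replicate number to a clone. Values are FPKM (fragments scaled to transcript length and library size) for every annotated gene, and the question is which messages differ after long exposure to a low dose of arsenic.

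Trivalent arsenic binds the thiols of cysteines and raises oxidative stress, and keratinocytes answer through the transcription factor NRF2, which drives glutathione and antioxidant genes, and through metallothioneins, small cysteine-rich proteins that bind metals. Unfolded proteins and nutrient stress act through ATF4 and its partners in the integrated stress response. The skin is a main site of arsenic-related cancer in people who drink arsenic in water, which is why HaCaT cells are kept in low doses for months as a model of that process. RNA from a culture is an average over its cells, so fewer cells of a kind and less RNA per cell cannot be told apart.

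The 6 libraries had FPKM sums of 712797 to 786389 with iAs and 747502 to 814505 without. Between 13803 and 14147 genes with iAs, and between 13853 and 14019 without, reached 0.5 FPKM. Read counts were not used here, so absolute depth is unknown. All 12 keratinocyte genes checked, among them KRT5, KRT14 and TP63, were above 10 FPKM in all 6 libraries, and their summed level was 2739 to 4230 FPKM with iAs and 2735 to 3526 FPKM without. Of 24 markers of fibroblasts, melanocytes, immune cells and endothelium 16 stayed under 0.5 FPKM in all 6 libraries. The exception in level was CDH5, an endothelial cadherin, at 11.3, 14.1 and 5.37 FPKM with iAs, against 15.6, 16.04 and 11.2 FPKM without (−0.54 ± 0.57), lower with iAs in every pair. The summed endothelial markers, mostly CDH5, ran from 6.06 to 14.3 FPKM with iAs and from 11.7 to 16.2 FPKM without. VWF, another of them, stood at 0.77, 0.17 and 0.68 FPKM with iAs, against 0.39, 0.17 and 0.44 FPKM without. The fibroblast sums ran from 2.09 to 3.68 FPKM with iAs and from 2.71 to 5.27 FPKM without. The melanocyte sums ran from 2.94 to 7.22 FPKM with iAs and from 3.58 to 7.0 FPKM without. The immune sums ran from 1.88 to 6.5 FPKM with iAs and from 1.92 to 6.4 FPKM without. Each library resembled the library of the other dose with the same replicate number more than any other of the 6, with correlations across genes of 0.979 to 0.985. Same-numbered libraries were therefore also read as pairs, and a fit with the number as a replicate block stands beside the unpaired one.

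No gene passed the test in the unpaired fit. limma on log2(FPKM + 0.5), fitted to all 24 libraries, called 0 of 14228 genes (0%) at adjusted p under 0.05, and the smallest adjusted p was 1. At unadjusted p under 0.05, 278 genes (1.95%) stood higher with iAs and 277 (1.95%) lower. With the replicate block on the 6 libraries, limma called 3 genes (0.0211%), 1 higher and 2 lower, with a smallest adjusted p of 0.00198. In that paired fit 1137 genes (7.99%) stood higher and 892 (6.27%) lower at unadjusted p under 0.05. The libraries of the doses did not overlap for 791 genes higher with iAs (5.56%) and 618 lower (4.34%), and 3030 genes (21.3%) were higher and 2375 (16.7%) lower in all 3 pairs. Most differences were small: the median absolute log2 change was 0.165, against a median standard error of 0.238 unpaired and 0.154 with the block. Differences in all 3 pairs were larger than 2-fold in 5 of 12909 genes with at least 1 FPKM in the higher dose, of which 2 were higher and 3 lower with iAs.

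**Figure D1:**
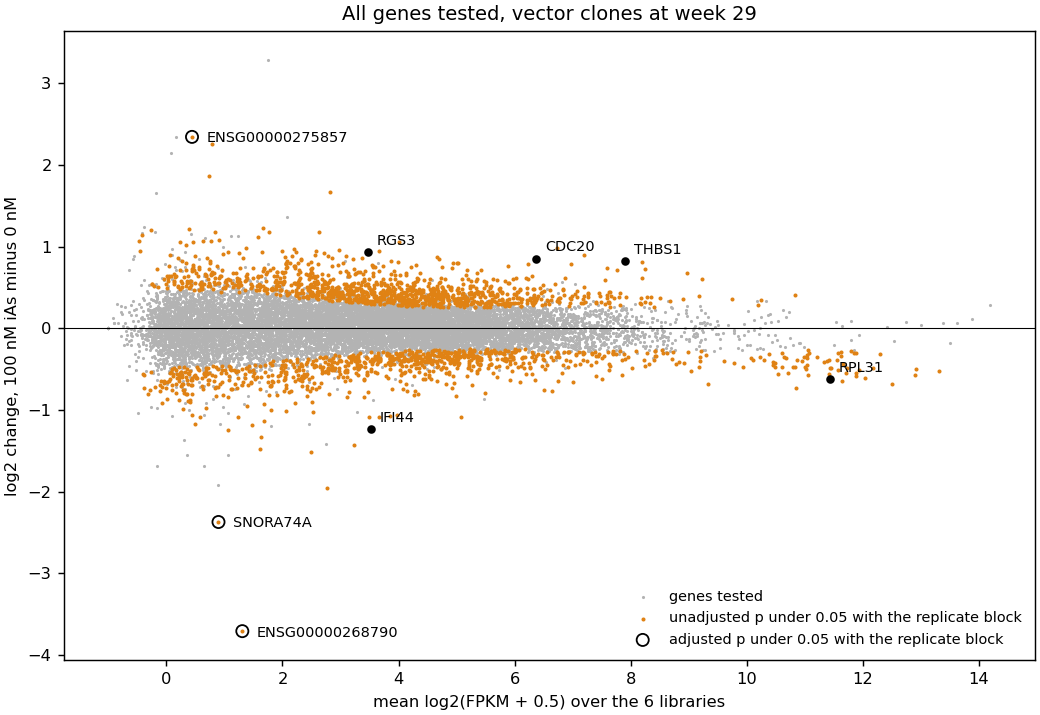
Each point is a gene, with its mean log2(FPKM + 0.5) over the 6 libraries on the x axis and its log2 change, 100 nM iAs minus 0 nM, on the y axis. Orange points had unadjusted p under 0.05 with the replicate block, and the 3 ringed genes passed the adjusted threshold in that fit; all 3 have low levels. Black points mark RGS3, CDC20, THBS1, IFI44 and RPL31, and ribosomal protein genes such as RPL31 lie at the right below 0.

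The 3 genes that passed with the replicate block are RNAs of low level. SNORA74A (ENSG00000200959, GRCh38 chromosome 5, 139278781 to 139278978, plus strand), a small nucleolar RNA of the class that guides pseudouridylation, was listed at 0, 1.69 and 0 FPKM with iAs, against 1.81, 7.42 and 3.65 FPKM without. It fell by 2.37 ± 0.25 on the log2 scale (standard error with the block, adjusted p = 0.0226 in limma). Its standard error in the unpaired fit was 1.03. Its log2 change was −3.85 with 0.1 added to FPKM in place of 0.5, and −1.785 with 1. Its value with iAs was below that of the untreated partner in each pair, and the groups did not overlap. Its host SNHG4 stood at 7.42, 5.31 and 7.49 FPKM with iAs, against 7.0, 5.09 and 9.58 FPKM without. In vector clones at week 12 SNORA74A stood at 0, 3.34 and 1.85 FPKM with iAs, against 0, 1.91 and 0 FPKM without, and in miR-186 clones at week 29 at 11.3, 9.90 and 1.70 FPKM with iAs, against 15.8, 4.003 and 2.07 FPKM without, so both comparisons overlapped. Libraries made from poly(A) RNA hold such short RNAs only in part. A gene without a symbol, ENSG00000268790 (GRCh38 chromosome 19, 16577642 to 16660115, minus strand, annotated as protein coding), overlaps MED26 and SMIM7 on the same strand. It was listed at 0, 0 and 0.784 FPKM with iAs, against 10.7, 4.31 and 12.8 FPKM without. It fell by 3.71 (± 0.26 with the block, adjusted p = 0.00198 in limma, and ± 0.86 in the unpaired fit). With values at 0 the size depends on the constant added to FPKM. The log2 change was −5.36 with 0.1 added in place of 0.5, and −2.97 with 1.

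SMIM7, whose product is a small membrane protein, averaged 54.2 ± 2.39 FPKM in the iAs libraries and 56.2 ± 5.80 FPKM in the untreated ones (SD, n = 3 each). MED26, a Mediator subunit, averaged 1.93 ± 0.37 FPKM in the iAs libraries and 1.40 ± 0.28 FPKM in the untreated ones (SD, n = 3 each). How the authors' counting divides reads among overlapping genes such as these is not known, so the level of ENSG00000268790 is uncertain. In vector clones at week 12 it stood at 1.25, 5.91 and 1.51 FPKM with iAs, against 11.7, 16.9 and 9.33 FPKM without, again with no overlap. In miR-186 clones the doses overlapped, with 4.41, 1.17 and 2.76 FPKM with iAs, against 2.11, 15.2 and 5.28 FPKM without at week 29, and with 0, 2.44 and 4.08 FPKM with iAs, against 4.59, 3.41 and 0 FPKM without at week 12. The third gene, ENSG00000275857 (GRCh38 chromosome 16, 29804430 to 29804990, minus strand), is annotated as antisense inside KIF22, which encodes a kinesin of mitotic chromosomes. It was listed at 2.19, 2.73 and 2.80 FPKM with iAs, against 0.241, 0 and 0.0902 FPKM without. It rose by 2.34 (± 0.23 with the block, adjusted p = 0.0160 in limma, and ± 0.70 in the unpaired fit). Its log2 change was 3.83 with 0.1 added to FPKM in place of 0.5, and 1.69 with 1. In vector clones at week 12 it overlapped, with 1.91, 1.76 and 0.575 FPKM with iAs, against 0.405, 1.73 and 0.352 FPKM without. KIF22 itself stood at 64.7, 57.8 and 48.1 FPKM with iAs, against 45.9, 47.6 and 28.1 FPKM without. The strand setting of the counting is not given in the sources used here, so reads of the antisense gene and of KIF22 cannot be told apart. ENSG00000268790 was the one of the 3 that still passed when the correction for GC content was added to the block (adjusted p = 0.0108); SNORA74A then had adjusted p = 0.0598 and ENSG00000275857 adjusted p = 0.0596. With pair 2 left out of the paired fit, ENSG00000268790 had adjusted p = 0.0398 and the other two adjusted p = 0.0672, and with the block in the fit of all 24 libraries each of the 3 had adjusted p = 0.815.

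Genes of mitosis stood higher with iAs. Of 44 mitosis and spindle checkpoint genes 42 had log2 changes above 0, with a median of 0.45 against 0.03 for all genes tested. None passed the threshold. The pair medians were 0.46, 0.08 and 0.82 in pairs 1, 2 and 3, so pair 2 lay close to 0. In 16 members the doses did not overlap, all of them higher with iAs, against 5.56% of all genes. At unadjusted p under 0.05, 2 members were higher in the unpaired fit of 24 libraries (1.95% of all genes). In an unpaired fit of the 6 libraries alone 20 were higher, against 310 of all 14228 genes. With the replicate block on those 6 libraries 31 were higher (7.99% of all genes). Leaving out iAs replicate 1 or untreated replicate 3 gave 0 in place of the 2, and leaving out iAs replicate 2 or untreated replicate 1 gave 1; the list median stayed between 0.32 and 0.59 whichever library was left out. CDC20, which activates the anaphase-promoting complex, stood at 130 FPKM in replicate 1, 102 in replicate 2 and 104 in replicate 3 with iAs, against 77.3, 65.8 and 45.1 FPKM without (0.85 ± 0.45 on the log2 scale; unadjusted p = 0.0705, and unadjusted p = 0.000145 with the block). The lowest iAs library lay above the highest untreated one.

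AURKB, the kinase of the chromosomal passenger complex, stood at 49.7, 46.6 and 32.0 FPKM with iAs, against 28.4, 28.0 and 17.3 FPKM without. MKI67, which coats mitotic chromosomes and marks cycling cells, stood at 42.8, 37.1 and 39.8 FPKM with iAs, against 22.6, 25.5 and 20.2 FPKM without. Both had groups that did not overlap, and both had adjusted p = 0.102 with the block. CENPF, a kinetochore protein, stood at 45.2, 38.6 and 43.8 FPKM with iAs, against 20.7, 33.2 and 20.5 FPKM without, with its smallest difference in pair 2. BUB3 and MAD2L1 of the checkpoint were the members below 0, at −0.10 ± 0.17 and −0.06 ± 0.33. The list of DNA replication and G1/S genes had a median of 0.03 over 29 members, with pair medians of 0.18, −0.14 and −0.14, and no member at unadjusted p under 0.05.

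Promoters of mitosis genes often carry the cell cycle genes homology region, an element bound by the DREAM and MuvB complexes. Its core letters, TTTGAA on either strand, occur in the RefSeq promoters (GRCh38.p14, 250 bases before to 50 after the start) of 25 of the 36 members with a promoter sequence, or 69.4%, against 18.2% of 27305 genes. These windows from members with small p values show the core in capitals, on the gene's own strand.
CENPF (chr1:214603225-214603244, plus strand): ctgcgggcagTTTGAAttag
INCENP (chr11:62123991-62124016, plus strand): agccttcagtTTTGAAaatcatagtt
CENPA (chr2:26786028-26786053, plus strand): gagcgagcgaTTTGAAcgcgagcggc
CDC20 (chr1:43358906-43358931, plus strand): acggttggatTTTGAAggagccaata
INCENP is the scaffold of the complex that holds AURKB and stood at 27.6, 30.0 and 24.3 FPKM with iAs, against 17.5, 22.1 and 16.1 FPKM without, while CENPA, the histone H3 variant of centromeres, stood at 28.7, 21.7 and 25.7 FPKM with iAs, against 18.5, 15.4 and 10.8 FPKM without. A match of letters is not evidence that a factor binds there.

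Genes induced by type I interferon stood lower with iAs. The median over 40 genes was −0.47 on the log2 scale, 37 were below 0, all but ISG15, IRF1 and IRF7, and the pair medians were −0.46, −0.21 and −0.81. None passed the threshold. At unadjusted p under 0.05, 9 were lower and 0 higher (1.95% of all genes were lower), 22 and 0 with the replicate block (6.27%), and 26 were lower in all 3 pairs (16.7%). The doses did not overlap in 4 of the 40, which were PARP9, IFI44, IRF9 and USP18 (4.34% of all genes were lower without overlap). PARP9, an interferon-induced ADP-ribosyltransferase family protein, stood at 32.3, 28.2 and 41.3 FPKM with iAs, against 53.6, 44.8 and 83.3 FPKM without, and the doses did not overlap. Its log2 change was −0.79 (± 0.27 in the unpaired fit, and ± 0.12 with the block, where adjusted p = 0.102 in limma). IFI44 stood at 7.63, 5.07 and 8.78 FPKM with iAs, against 14.8, 9.56 and 35.4 FPKM without, and the doses did not overlap (−1.24 ± 0.47). OAS2, which senses double-stranded RNA and makes the messenger 2-5A for RNase L, stood at 8.87, 5.75 and 7.40 FPKM with iAs, against 15.2, 8.68 and 30.7 FPKM without. The untreated library of replicate 3 was the highest of the 6 for each of these 3 genes.

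IRF9, a subunit of the factor that binds interferon response elements, stood at 48.3, 41.0 and 36.3 FPKM with iAs, against 60.8, 48.5 and 84.7 FPKM without, and USP18, a brake on the receptor, at 1.94, 1.92 and 1.87 FPKM with iAs, against 3.45, 2.32 and 3.82 FPKM without. Neither overlapped between the doses. Without the untreated library of replicate 3 the list median was −0.28, and 0 of the 40 genes had unadjusted p under 0.05. Without untreated replicate 2 the median was −0.69 and 18 genes did, and without iAs replicate 2 only 3 did, so the number of genes rests on single libraries. Beta-2 microglobulin, B2M, the light chain of MHC class I, stood at 4350, 3380 and 6622 FPKM with iAs, against 6159, 7083 and 9220 FPKM without (−0.68 ± 0.28), but the 18 genes of class I antigen presentation had a median of −0.13, which was near 0 without untreated replicate 1 and −0.29 without untreated replicate 2.

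Interferon-induced genes share the interferon-stimulated response element. Its core, GAAANNGAA on either strand, occurs in the promoters of 23 of the 32 members with a sequence, or 71.9%, against 9.86% of all 27305 genes. The members were listed because interferon induces them, so a high share was likely from the start and says nothing about iAs. Capitals mark the core, which in PARP9 and IFI44 lies on the opposite strand and so reads as its reverse complement.
PARP9 (chr3:122564322-122564350, minus strand): ggcgcaaagtTTCAGTTTCgcttccctgg
OAS3 (chr12:112938452-112938480, plus strand): agccgggcggGAAAACGAAaccagaaatc
IFI44 (chr1:78649762-78649790, plus strand): cacactgagtTTCAGTTTCctttctctga
IFI6 (chr1:27672267-27672295, minus strand): gcagagtgcaGAAATAGAAactccgacag
OAS3, a relative of OAS2, stood at 17.1, 12.2 and 14.2 FPKM with iAs, against 25.5, 15.1 and 39.2 FPKM without, with replicate 2 of the untreated cells inside the iAs range.

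Ribosomal protein genes also stood lower with iAs. Of 45 cytosolic ribosomal protein genes 44 were below 0, with a median of −0.32 and pair medians of −0.36, −0.20 and −0.46. Of the 45, 30 were lower in all 3 pairs, against 16.7% of all genes. None passed the threshold. In 20 of the 45 the doses did not overlap, all lower with iAs, against 4.34% of all genes tested. At unadjusted p under 0.05, 12 were lower and 0 higher, 16 and 0 in an unpaired fit of the 6 libraries alone, and 28 and 0 with the replicate block. Of all genes 1.95% were lower in the fit of 24 libraries and 6.27% with the block. In the unpaired fit of the 6 libraries alone, 285 of all 14228 genes were lower. RPL30 stood at 2005, 1996 and 2878 FPKM with iAs, against 3014, 3170 and 3882 FPKM without (−0.56 ± 0.20). RPS18 stood at 3125, 3291 and 3489 FPKM with iAs, against 4654, 4336 and 5170 FPKM without (−0.51 ± 0.20). In each the highest iAs library lay below the lowest untreated one.

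RPL31, at 2055, 2143 and 2479 FPKM with iAs, against 3174, 3316 and 3810 FPKM without, RPL36A and RPL41, which are not on the list, were among the genes with the smallest p in the paired fit (adjusted p = 0.102 for each with the block). Members such as RPS15, RPLP2 and RPS9 followed another pattern and were low in replicate 3 of both doses. Many ribosomal protein genes have processed pseudogenes of nearly the same sequence, and how the counting treated shared reads is not given, so single values are uncertain. Without the untreated library of replicate 3, 1 member had unadjusted p under 0.05, without iAs replicate 1 there were 3, without iAs replicate 2 there were 6 and without untreated replicate 2 there were 8, while the list median stayed between −0.40 and −0.32 whichever library was left out. Mitochondrial ribosomal proteins, which serve the other ribosome of the cell, had a median of −0.10 over 39 genes with pair medians close to 0 in pair 1, of −0.28 in pair 2 and of 0.06 in pair 3.

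**Figure D2:**
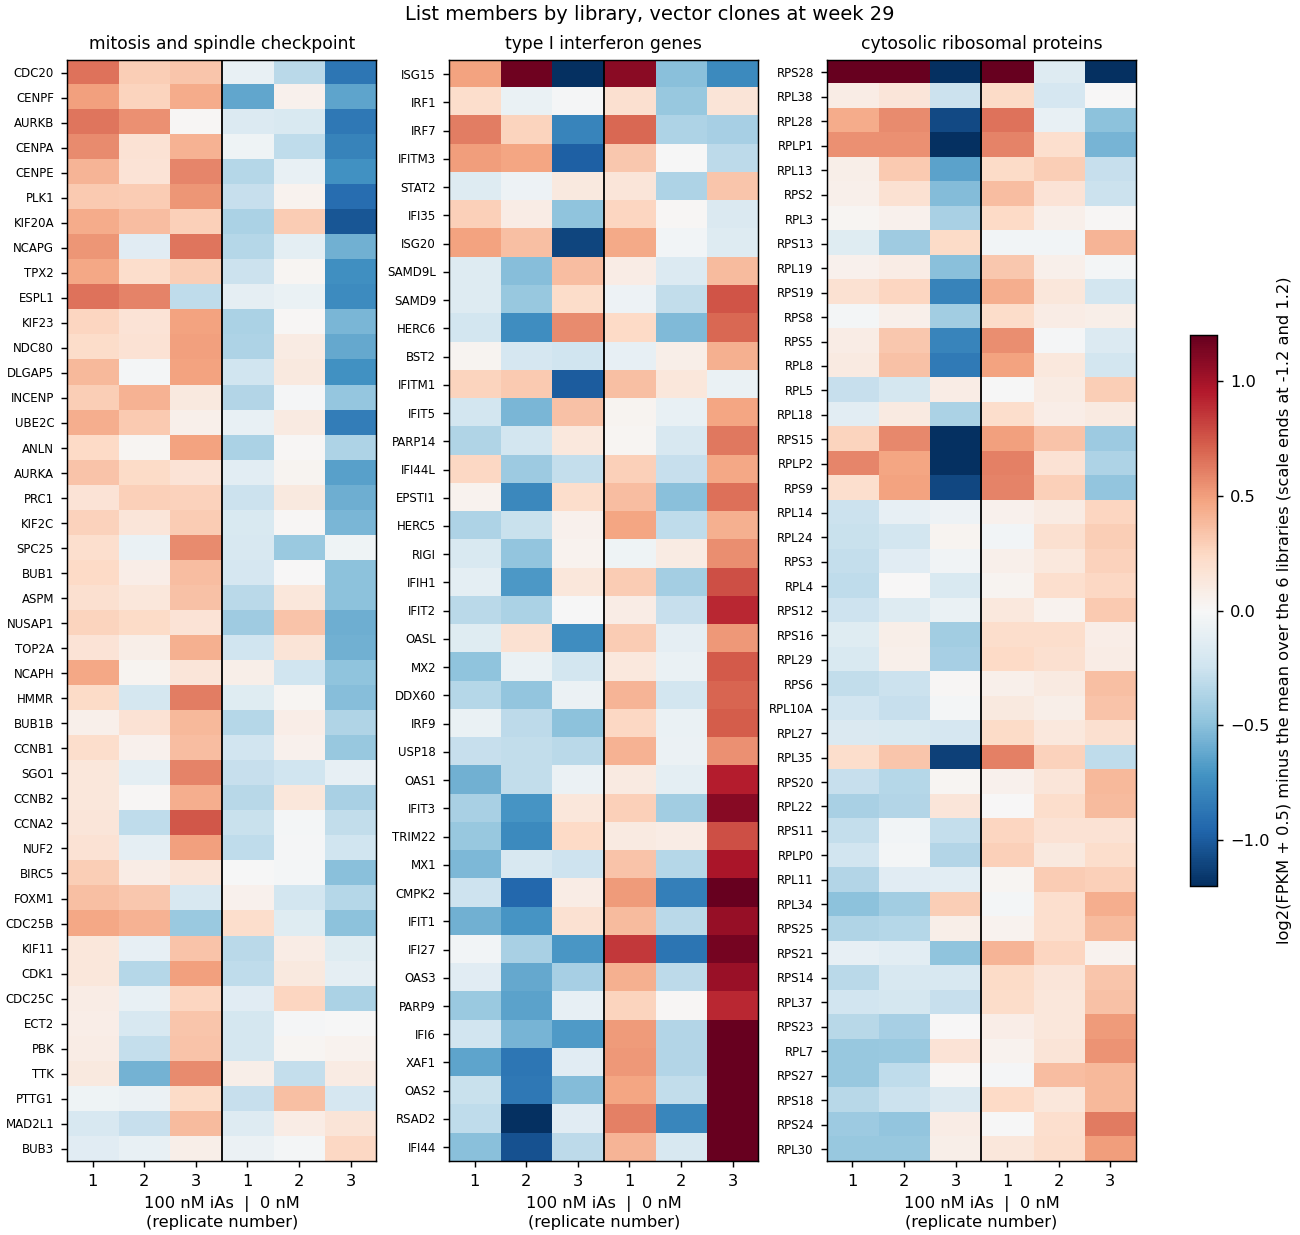
Colour gives log2(FPKM + 0.5) of each member minus its mean over the 6 libraries, with iAs libraries left of the line and untreated libraries right of it, numbered by replicate; not every member is drawn. Most mitosis genes are higher in the iAs columns 1 and 3 than in the untreated columns 1 and 3, most interferon genes are highest in the untreated column 3, and most ribosomal protein genes are lower in the iAs columns.

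Messages of ribosomal proteins begin with a C followed by a run of pyrimidines, the 5′ terminal oligopyrimidine tract, through which mTOR and LARP1 control their translation. By RefSeq starts, a C at the first transcribed base followed by at least 4 pyrimidines was found in 28 of the 35 members with a promoter sequence, or 80.0%, against 5.14% of all 27305 genes, on the gene's own strand. In these windows of 12 bases on each side of the start, capitals begin at the first transcribed base and mark the tract.
RPS18 (chr6:33272063-33272086, plus strand): gtcacttccgctCTCTCTTCCaca
RPS23 (chr5:82278343-82278366, minus strand): tgcggtgcttctCTCTTTCgctca
RPS14 (chr5:150449728-150449751, minus strand): ccccctcccactCTCTCTTTCCgg
RPS6 (chr9:19380225-19380248, minus strand): cggaagttggccCTCTTTTCCgtg
RPS6, the ribosomal protein phosphorylated downstream of mTOR, stood at 1937, 1993 and 2405 FPKM with iAs, against 2485, 2555 and 3050 FPKM without (−0.35 ± 0.16), and the doses did not overlap. Levels of messages say nothing about their translation.

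Genes of the unfolded protein and integrated stress responses stood higher with iAs in 22 of 23 measured members, with a median of 0.34 and pair medians of 0.30, 0.19 and 0.30. None passed the threshold, 3 were higher and 0 lower at unadjusted p under 0.05, and 12 and 0 with the block, against 1.95% and 7.99% of all genes higher. PPP1R15A, also called GADD34, the phosphatase subunit that reverses eIF2alpha phosphorylation, stood at 75.8, 79.2 and 55.4 FPKM with iAs, against 52.7, 52.3 and 35.4 FPKM without (0.58 ± 0.17; unadjusted p = 0.00246 in limma). HERPUD1, which takes part in degradation of proteins from the endoplasmic reticulum, stood at 401, 357 and 420 FPKM with iAs, against 226, 313 and 188 FPKM without. ATF3, a stress-induced transcription factor, stood at 147, 162 and 184 FPKM with iAs, against 88.0, 113 and 85.9 FPKM without. The doses did not overlap for any of the 3.

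HYOU1, a chaperone of the endoplasmic reticulum, stood at 294, 246 and 213 FPKM with iAs, against 172, 159 and 121 FPKM without, again with no overlap. Its log2 change was 0.74 (± 0.49 in the unpaired fit, and ± 0.12 with the block, where adjusted p = 0.102 in limma). SESN2, an ATF4 target that restrains mTORC1, stood at 17.3, 17.4 and 10.8 FPKM with iAs, against 11.2, 7.76 and 6.91 FPKM without, while its relative SESN1, a p53 target, stood at 2.91, 3.65 and 4.96 FPKM with iAs, against 5.46, 7.42 and 7.70 FPKM without (−0.77 ± 0.21). SESN1 did not overlap between the doses, while for SESN2 iAs replicate 3 lay below untreated replicate 1. The p53 target list as a whole had a median of 0.12 with pair medians of 0.16, 0.02 and −0.17, and cytosolic heat shock proteins and chaperones one of 0.09; both medians lay on the other side of 0 when 1 iAs library was left out (−0.08 for p53 targets without replicate 1, −0.03 for chaperones without replicate 3).

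Antioxidant genes controlled by NRF2 had a median of 0.26, with pair medians of 0.23, 0.32 and 0.22, and 24 of 27 were above 0. None passed the threshold. At unadjusted p under 0.05, 10 were higher and 0 lower with the block, against 7.99% of all genes higher. In the unpaired fit 1 was higher, against 1.95% of all genes. That gene was GCLC, the catalytic subunit of the enzyme that limits glutathione synthesis, at 146, 241 and 223 FPKM with iAs, against 84.1, 155 and 92.7 FPKM without (0.90 ± 0.31; unadjusted p = 0.00918 in limma). It was higher with iAs in every pair, but iAs replicate 1 lay below untreated replicate 2. The aldo-keto reductases AKR1C1 and AKR1C3, close paralogs that can share reads, stood at 0.88 ± 0.48 and 0.79 ± 0.43 on the log2 scale. Without the iAs library of replicate 2 the list median was 0.10.

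Of the metallothioneins 4 of 10 were measured, with a median of 0.44 that was 0.09 without untreated replicate 3 and 0.77 without iAs replicate 3. MT1F stood at 18.3, 19.8 and 17.5 FPKM with iAs, against 16.9, 13.1 and 7.70 FPKM without, and its doses did not overlap. MT2A, the most abundant form in many tissues, stood at 186, 179 and 41.0 FPKM with iAs, against 140, 80.4 and 44.6 FPKM without, so both libraries of replicate 3 were low, and MT1X and the keratins KRT14, KRT19 and KRT7 were lowest there too. Genes that methylate, reduce or transport arsenic had a median of 0.12, and of −0.16 without untreated replicate 2. Of the 11 measured, 6 were above 0 and 5 below. The glutathione transferase GSTO1, which reduces methylated arsenic species, stood at 66.4, 62.7 and 82.6 FPKM with iAs, against 80.1, 92.1 and 108 FPKM without (−0.40 ± 0.19). Its iAs replicate 3 lay above untreated replicate 1. GSTO2 stood at −0.33 ± 0.18.

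Ligands of the EGF receptor family and early response genes lay above 0 as groups. All 10 measured EGFR ligands and receptors were above 0, with a median of 0.27 and pair medians of 0.23, 0.42 and 0.46, and 5 of them did not overlap between the doses, against 5.56% of all genes. None passed the threshold. AREG, a ligand that keratinocytes use in an autocrine loop, stood at 34.6, 25.3 and 44.3 FPKM with iAs, against 16.9, 18.2 and 19.8 FPKM without. HBEGF stood at 54.2, 58.8 and 51.8 FPKM with iAs, against 30.5, 39.8 and 41.4 FPKM without. EREG stood at 3.29, 2.25 and 4.15 FPKM with iAs, against 1.89, 1.35 and 1.86 FPKM without, and the receptor EGFR at 151, 184 and 171 FPKM with iAs, against 145, 145 and 146 FPKM without. In all 4 the lowest iAs library lay above the highest untreated one. The list median was 0.42 without iAs replicate 3.

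All 20 AP-1 and immediate early genes were above 0 with a median of 0.33, and the pair medians were 0.47, 0.19 and 0.12. None passed the threshold, 2 were higher at unadjusted p under 0.05 and 9 with the block, against 1.95% and 7.99% of all genes. Without iAs replicate 2 the median was 0.22. FOS stood at 324, 434 and 339 FPKM with iAs, against 195, 360 and 190 FPKM without, and JUN, its partner, at 22.8, 24.1 and 18.2 FPKM with iAs, against 14.2, 21.5 and 12.4 FPKM without. In both, untreated replicate 2 lay within the iAs range. MYC stood at 135, 128 and 111 FPKM with iAs, against 92.4, 100 and 95.1 FPKM without, with no overlap.

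Genes of the YAP and TEAD pathway, which reads cell density and tension, were above 0 in 17 of 18 members, with a median of 0.31 and pair medians of 0.33, 0.26 and 0.23. None passed the threshold, and 7 had no overlap between the doses, all of them higher with iAs, against 5.56% of all genes. CCN2, or connective tissue growth factor, a direct target, stood at 13.1, 6.81 and 12.8 FPKM with iAs, against 5.99, 3.93 and 5.76 FPKM without. Its log2 change was 0.96 (± 0.33 in the unpaired fit, and ± 0.15 with the block, where adjusted p = 0.102 in limma). THBS1, which encodes the matrix protein thrombospondin 1, stood at 349, 269 and 339 FPKM with iAs, against 196, 175 and 167 FPKM without. Its log2 change was 0.82 (± 0.29 in the unpaired fit, and ± 0.13 with the block, where adjusted p = 0.102 in limma). TEAD1, the DNA-binding partner of YAP, stood at 33.9, 26.9 and 28.4 FPKM with iAs, against 26.5, 20 and 21.1 FPKM without. For these 3 genes every iAs library lay above every untreated one.

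Prostaglandin synthase PTGS2, or COX-2, stood at 25.6, 21.6 and 20.9 FPKM with iAs, against 7.12, 16.9 and 9.76 FPKM without (1.06 ± 0.66), and NFKB1, which encodes the p50 subunit of NF-kB and its precursor, at 36.3, 36.6 and 41.5 FPKM with iAs, against 25.2, 28.3 and 30.4 FPKM without (0.44 ± 0.13; unadjusted p = 0.00261 in limma). Neither overlapped between the doses. The list of cytokines and NF-kB targets had a median of 0.24 over 25 members, with pair medians of 0.51, 0.19 and 0.03. At unadjusted p under 0.05, 2 members were higher and 0 lower, against 1.95% of all genes in each direction. With the block 6 were higher and 1 lower, against 7.99% and 6.27% of all genes. Without iAs replicate 1 the list median was 0.08.

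**Figure D3:**
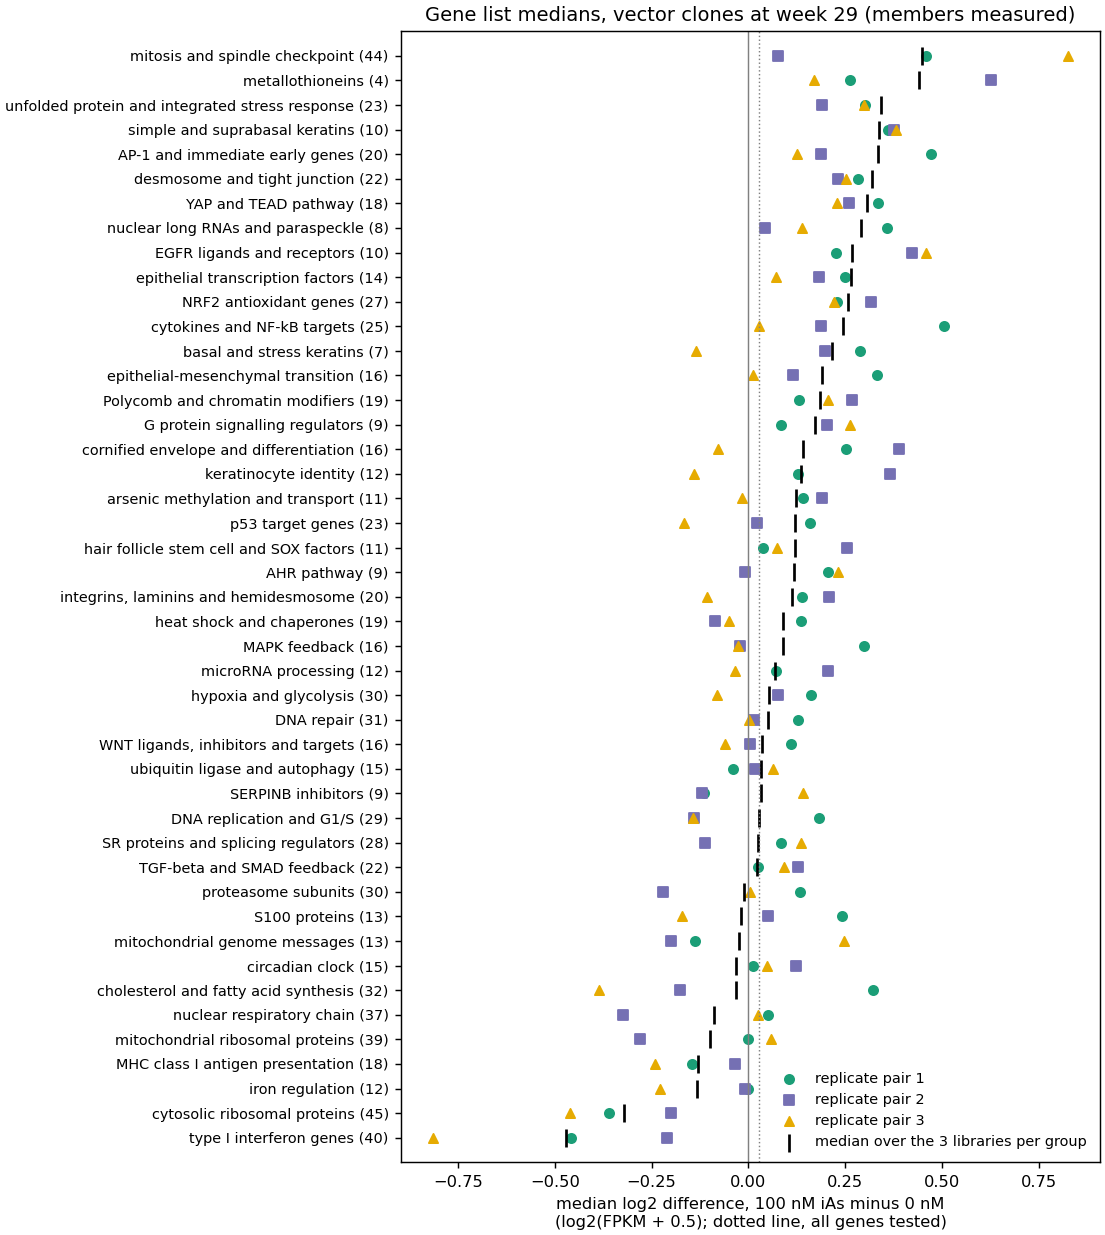
Rows are gene lists with the number of members measured, and the x axis is the median log2 difference, 100 nM iAs minus 0 nM, in each replicate pair and over the 3 libraries per group. The dotted line marks the median of all genes tested, 0.03; mitosis genes (0.45) and metallothioneins (0.44) lie at the top and interferon genes at the bottom with −0.47, and the pairs of each of these lists lie far apart.

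Among epithelial genes, the paired keratins of simple epithelia stood higher with iAs. KRT8 stood at 828, 665 and 469 FPKM with iAs, against 526, 356 and 334 FPKM without (0.68 ± 0.26; unadjusted p = 0.0145 in limma), and KRT18 at 354, 292 and 212 FPKM with iAs, against 224, 167 and 132 FPKM without (0.72 ± 0.27; unadjusted p = 0.0150 in limma). Each was higher with iAs in every pair, while the levels of the pairs were so far apart that the groups overlapped. The list median of 0.34 was 0.22 without untreated replicate 3 and 0.69 without iAs replicate 3. The other 8 measured genes of the list of simple and suprabasal keratins had unadjusted p above 0.05. Basal and stress keratins had a median of 0.22 and a pair median of −0.14 in pair 3; the median was 0.01 without iAs replicate 2, 0.38 without iAs replicate 3 and 0.05 with the GC correction. The cornified envelope list had a median of 0.14 and a pair median of −0.08 in pair 3; its median was 0.06 without iAs replicate 2, 0.32 without iAs replicate 3 and 0.01 with the GC correction.

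Desmosome and tight junction genes had a median of 0.32 with pair medians of 0.28, 0.23 and 0.25, and 19 of 22 members were above 0. None passed the threshold, and at unadjusted p under 0.05, 1 was higher and 0 lower, and 12 and 0 with the block, against 1.95% and 7.99% of all genes higher. TJP1, the tight junction scaffold ZO-1, stood at 92.9, 110 and 115 FPKM with iAs, against 77.5, 76.7 and 77.2 FPKM without, with no overlap between the doses. The desmosomal cadherin DSG3 stood at 136, 131 and 167 FPKM with iAs, against 174, 155 and 190 FPKM without.

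Among genes that switch between epithelial and mesenchymal states, SNAI2, a repressor of epithelial genes, stood at 45.6, 50.9 and 47.9 FPKM with iAs, against 57.8, 63.4 and 66.6 FPKM without. ESRP2, an epithelial splicing regulator, stood at 22.2, 26.5 and 18.2 FPKM with iAs, against 16.6, 18.0 and 12.7 FPKM without. Neither overlapped between the doses. CDH2, or N-cadherin, stood at 47.6, 26.1 and 32.2 FPKM with iAs, against 35.8, 13.1 and 14.1 FPKM without, and the list median was 0.19 with pair medians of 0.33, 0.12 and 0.01, and 0.04 without iAs replicate 1 or 0.56 without iAs replicate 3.

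The single genes with the smallest p in the unpaired fit belonged to no one list. RGS3 (ENSG00000138835, GRCh38 chromosome 9, 113444731 to 113597743, plus strand), which speeds the turning off of G proteins, had the smallest p of the named genes: 14.2, 15.2 and 14.9 FPKM with iAs, against 8.75, 7.48 and 6.46 FPKM without (0.93 ± 0.20; unadjusted p = 0.000189, adjusted p = 1, and adjusted p = 0.102 with the block). The iAs libraries lay close together, all above the untreated ones. Beside RGS3, the transcription factor SOX9 of hair follicle stem cells stood at 11.03, 9.85 and 10.8 FPKM with iAs, against 5.89, 5.99 and 7.52 FPKM without. The splicing regulator TRA2A stood at 93.0, 79.6 and 99.8 FPKM with iAs, against 53.9, 63.1 and 59.6 FPKM without, and CBLL1, a subunit of the m6A methyltransferase complex, at 22.3, 23.3 and 27.0 FPKM with iAs, against 15.1, 17.3 and 14.5 FPKM without. Of the 8 groups of the series, untreated vector clones at week 29 had the lowest mean of SOX9, TRA2A and CBLL1. For TRA2A it was 58.8 FPKM, against 72.8 to 110.4 FPKM in the other groups. For SOX9 it was 6.47 FPKM, against 10.2 to 27.6 FPKM, and for CBLL1 15.6 FPKM, against 18.8 to 25.7 FPKM. PCGF1, a Polycomb ring finger protein, stood at 0.53 ± 0.14, ZFP42, a zinc finger protein known as REX1 in stem cells, at 0.92 ± 0.25, and NFX1, which represses transcription at X boxes, at 0.42 ± 0.12 on the log2 scale.

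On the lower side, FBXL5 (ENSG00000118564, GRCh38 chromosome 4, 15604539 to 15681679, minus strand), the iron-sensing ubiquitin ligase subunit that degrades IRP2, stood at 12.1, 10.8 and 16.8 FPKM with iAs, against 22.0, 21.9 and 23.99 FPKM without (−0.77 ± 0.20; unadjusted p = 0.000886 in limma). RNLS (ENSG00000184719, GRCh38 chromosome 10, 88273864 to 88584530, minus strand), the flavoprotein renalase, stood at 1.24, 1.32 and 1.49 FPKM with iAs, against 3.43, 3.10 and 4.80 FPKM without (−1.19 ± 0.32). FUNDC2, a protein of the outer mitochondrial membrane, stood at 57.3, 61.1 and 76.9 FPKM with iAs, against 84.6, 92.1 and 112 FPKM without. PRORP, the protein-only RNase P of mitochondria, stood at 26.1, 21.6 and 26.2 FPKM with iAs, against 34.4, 38.0 and 38.6 FPKM without. By the rule for these genes, the doses did not overlap in any of them. PSG2, a pregnancy-specific glycoprotein with several near-identical relatives that can share its reads, stood at 1.21, 2.08 and 1.202 FPKM with iAs, against 3.49, 7.88 and 3.12 FPKM without.

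**Figure D4:**
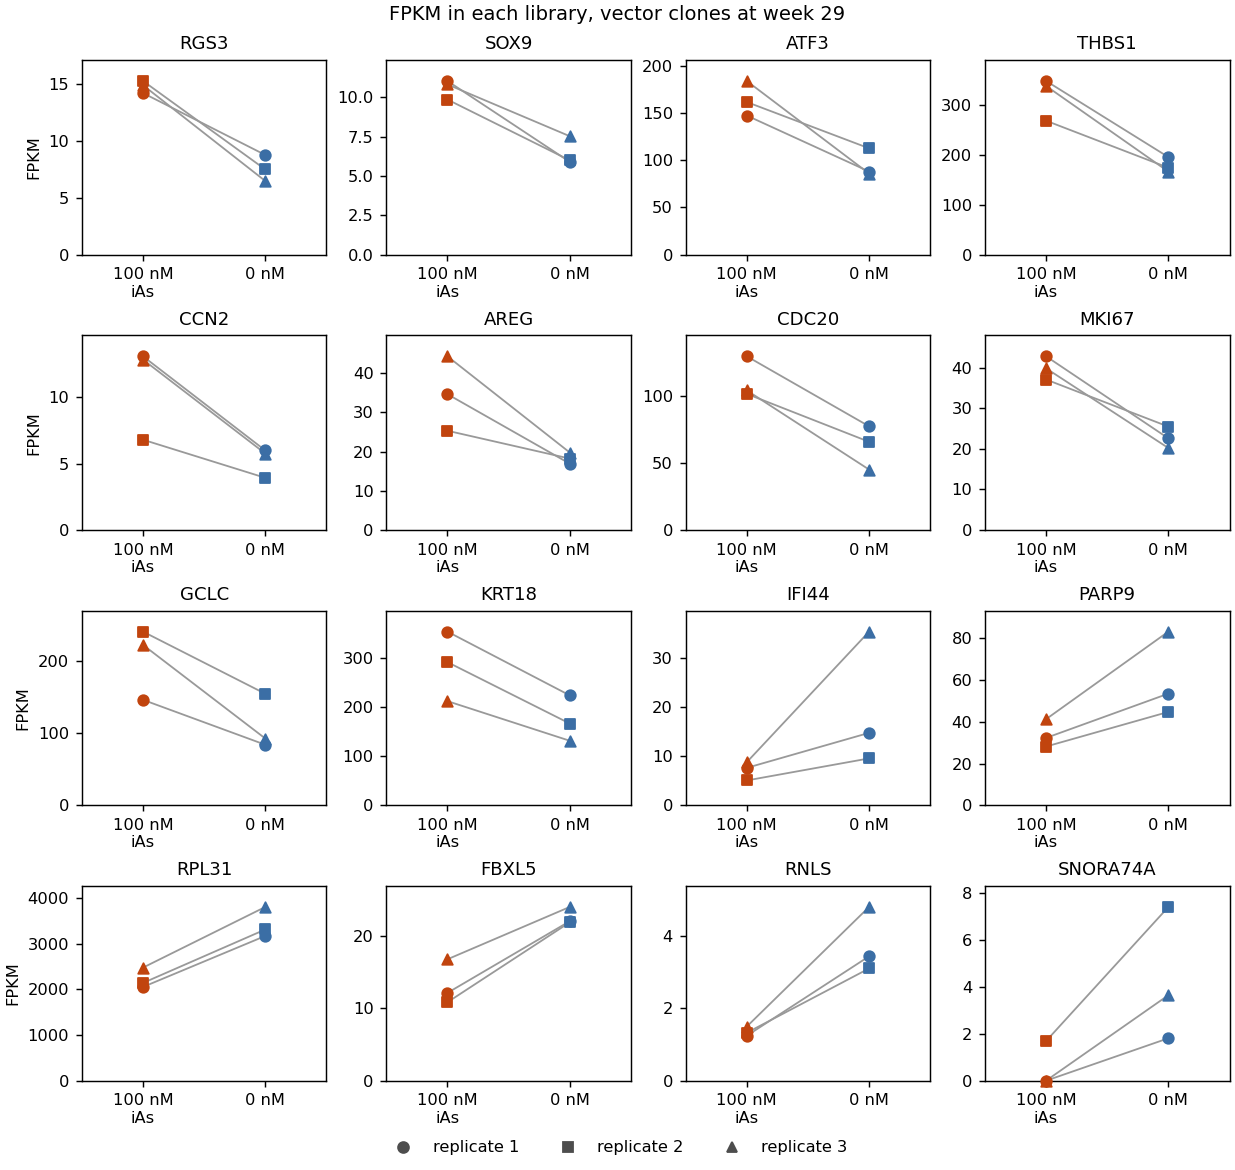
FPKM on linear axes from 0 for 16 genes, with iAs libraries on the left, untreated libraries on the right, symbols for the replicate number and lines joining same-numbered libraries. Every line of a gene runs the same way, while for GCLC, KRT18 and others the pairs start from different levels; SNORA74A, at adjusted p = 0.0226 with the replicate block, is the one gene shown that passed a test.

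Most other lists lay near the median of all genes. Proteasome subunits had a median of −0.01 over 30 genes, DNA repair genes 0.05 over 31, hypoxia and glycolysis genes 0.05 over 30, cholesterol and fatty acid synthesis genes −0.03 over 32, messages of the mitochondrial genome −0.02 over 13 and circadian clock genes −0.03 over 15. The cholesterol list had pair medians of 0.32, −0.18 and −0.39, so a median near 0 here covers pairs that lie apart. The 20 genes of integrins, laminins and hemidesmosomes had a median of 0.11 and a pair median of −0.11 in pair 3.

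Within the pairs, some regions of chromosomes moved together. In windows of 20 Mb with at least 40 genes, after correction for GC content, 18 of 138 windows had a median difference beyond 0.15 in pair 3, against 1 in pair 1 and 4 in pair 2. On GRCh38 chromosome 4 between 60000001 and 80000000 the medians were 0.13, 0.09 and 0.29 over 49 genes in pairs 1, 2 and 3. On chromosome 16 between 1 and 20000000 they were −0.02, −0.04 and 0.25 over 211 genes, and on chromosome 10 between 100000001 and 120000000 they were 0.01, −0.01 and −0.24 over 109 genes. On chromosome 18 between 40000001 and 60000000 they were −0.01, 0.19 and 0.21 over 51 genes. The part of these windows in the values of single genes was not tested. AREG and EREG lie in the window on chromosome 4. Other genes named here also lie in windows beyond 0.15 in pair 3. Among them are NFKB1 (window median in pair 3 of 0.23), ENSG00000275857 and KIF22 (0.24), and RNLS and PRORP (−0.22 each). RPL36A (−0.17) and FUNDC2 (−0.154) are others, and all of these genes changed in the direction of their window. MKI67 (−0.17) changed in the opposite direction. The libraries also differed in how levels changed with GC content. The slope per 10 points of GC, relative to the mean of the 6, was 0.16, 0.27 and −0.30 on the log2 scale in iAs replicates 1, 2 and 3, against 0.12, −0.01 and −0.23 in the untreated ones. With the correction the list medians were 0.47 for mitosis, −0.44 for interferon and 0.25 for the unfolded protein and integrated stress responses.

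The same dose was set against 0 nM in vector clones at week 12 and in miR-186 clones at week 29, with 6 libraries in each of these comparisons and none shared with the one described here. No gene passed a test of the difference in its iAs effect: limma called 0 genes (0%) for week 29 minus week 12, with 608 (4.27%) higher and 450 (3.16%) lower at unadjusted p under 0.05, and 0 genes (0%) for vector minus miR-186 clones, with 173 (1.22%) and 99 (0.696%). For mitosis genes the median log2 change was 0.45 in vector clones at week 29, −0.18 at week 12 and −0.23 in miR-186 clones at week 29. For AP-1 and immediate early genes it was 0.33, −0.11 and −0.33, and 4 of the 20 members had unadjusted p under 0.05 for the difference between constructs, all higher in vector clones, and 2 were higher at week 29 for the difference between weeks. Of the 44 mitosis genes 1 was higher for the difference between constructs and 0 for that between weeks. For ribosomal protein genes it was −0.32, −0.25 and 0.11. For interferon genes it was −0.47, −0.22 and −0.45, and for NRF2 genes 0.26, 0.36 and 0.27, so these lists lay on the same side of 0 in all 3 comparisons.

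**Figure D5:**
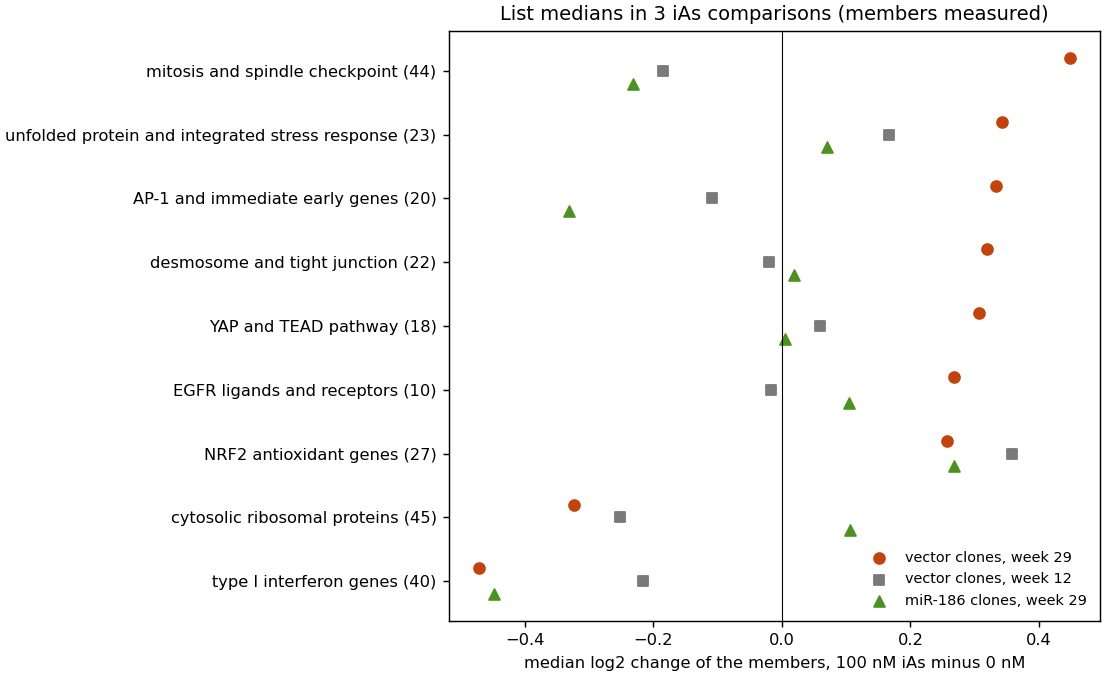
The x axis is the median log2 change, 100 nM iAs minus 0 nM, over the members of each list in 3 comparisons that share no library. Mitosis genes stand at 0.45 in vector clones at week 29 and at −0.18 and −0.23 in the others, while interferon and NRF2 genes lie on the same side of 0 in all 3.

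Among single genes, RGS3 had a log2 change of 0.93 ± 0.20 in vector clones at week 29, 0.63 ± 0.20 at week 12 and 0.02 ± 0.20 in miR-186 clones at week 29. SOX9 and KDM6A, a histone H3K27 demethylase on the X chromosome, had the smallest p for the difference between weeks. KDM6A stood at 33.4, 31.9 and 36.4 FPKM with iAs at week 29, against 21.9, 25.3 and 23.7 FPKM without, and at 32.1, 23.7 and 29.1 FPKM with iAs at week 12, against 46.8, 42.4 and 53.6 FPKM without. At each week the doses did not overlap, in opposite directions (difference of effects 1.26 ± 0.24, adjusted p = 0.215 in limma). Between constructs HMGN5, a nucleosome-binding protein, stood at 3.66, 2.80 and 2.99 FPKM with iAs in vector clones, against 1.37, 1.29 and 1.37 FPKM without, and at 5.18, 5.41 and 2.93 FPKM with iAs in miR-186 clones, against 3.83, 15.4 and 7.43 FPKM without (difference of effects 1.73 ± 0.46, adjusted p = 1 in limma). TRA2A and CBLL1 were also among the 5 named genes with the smallest p for that difference, at 0.76 ± 0.20 and 0.75 ± 0.21. Like these genes, KDM6A and HMGN5 had their lowest mean of the 8 groups in untreated vector clones at week 29.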

How the data were processed

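RNA was sequenced from poly(A) libraries (TruSeq Stranded mRNA kit), per the labels' protocols. The authors deposited FPKM per gene; the submitters' processing notes name STAR 2.6.0c, Cuffdiff 2.2.1 and GRCh38. Annotation release, strand setting and scaling between libraries are not given in the sources used here. Groups follow construct, dose and week in the labels, which call the 3 libraries of a group independent biological triplicates; p-values measure the spread between them.

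Values entered as log2(FPKM + 0.5), on which fold changes of weakly expressed genes come out too small, for 14228 genes whose mean over the 24 libraries was 0.5 FPKM or more. limma 3.58.1 under R 4.3.3, with an intensity trend, robust moderation, Benjamini-Hochberg adjustment and a threshold of 0.05, used all 8 groups in 1 model. The fit was also run on simulated data. These data held no effects shared within pairs, so that run cannot show how the fit behaves on libraries that pair. Unadjusted p-values are limma's. Unless marked otherwise, a ± beside a log2 change is the standard error of the unpaired fit of the 24 libraries. A p-value with the block comes from the paired fit, which has its own standard error. In the paired fit, limma was run on the 6 libraries with the replicate number as a block. Deviations of same-numbered libraries from their group means correlated at 0.49, 0.46 and 0.62 across genes, all over 0.1. One mismatched combination, iAs replicate 2 with untreated replicate 1, was also over 0.1, at 0.14. The other mismatched ones lay between −0.57 and −0.22, which is partly forced, since deviations within a dose cancel. The numbers were taken to mark pairs from these values alone, since the labels give no evidence. The GC correction was a spline with 5 degrees of freedom per library on the GC content of transcripts in GENCODE release 29. With it the correlations of same-numbered libraries were 0.38, 0.49 and 0.45.

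Genes were named by rule: with a symbol, not antisense, 1 FPKM or more on average in the higher dose and no overlap between doses. No direction had 3 genes past the threshold, so the 12 of smallest p in each direction were taken, in the unpaired and in the paired fit, with up to 4 of smallest p in each described list and 5 for each difference of effects. Not every gene taken is printed, and some are not reported here. Other genes, including the 2 without a symbol that passed with the block, were chosen after their values were seen. Lists, members and comparisons were chosen with earlier results of these data known. Promoter sequences are RefSeq's. Shares of promoter letters were taken over listed genes of known function, whatever their change, so they do not bear on the iAs effect. Alternatives were pseudocounts of 0.1 and 1, other filters, median ratio scaling, the GC correction, blocks and leaving out libraries or pairs.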

Additional observations from a re-analysis of the deposited data

How the results depend on the processing

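The count of 0 genes at adjusted p under 0.05 was also found with either other pseudocount, with either other filter, with median ratio scaling, with the GC correction, with a block over all groups, in a fit of the 6 libraries without a block, and with any 1 library left out. The replicate block on the 6 libraries gave 3 genes, and 1 with the GC correction added. That paired fit has few degrees of freedom, and leaving out pair 1, 2 or 3 gave 95, 2 or 262 genes (replicate block). At unadjusted p under 0.05 the unpaired count was 555. It was 1268 without a filter (31357 genes tested), 836 with the block over all groups, 2029 with the replicate block, 2521 with the GC correction and block, and 1127, 2201 and 2263 with the block and pair 1, 2 or 3 left out. Leaving out 1 library gave 295 to 1410: 295 without untreated replicate 3, 335 without iAs replicate 1 and 1410 without iAs replicate 3. For the difference between constructs, 3 genes passed without a filter and 0 otherwise; for that between weeks, 0 passed under each alternative run. Median ratio scaling moved the split at unadjusted p under 0.05 to 238 higher and 342 lower. Of 855 refitted list medians 69 moved by more than the spread between pairs. The p-values rest on 3 libraries a group, depth is unknown without read counts, and the median standard error was 0.238 on the log2 scale.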
